A study of Mus musculus with 2 samples.

Results

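MicroRNA loci are the short genomic stretches that encode microRNA hairpins, and 131 of the 622 microRNA symbols listed in both expression tables had reads at a level of 1 RPKM or more in at least 1 library. RPKM is the read number divided by the annotated length and by the library's total. The loci were chosen by symbol (Mir followed by a digit, or Mirlet) and by that level in these same libraries, so their presence is a condition of the choice and not a result. A further 42 symbols had reads but stayed below 1 RPKM, and 449 were listed at 0 in both libraries. The study sequenced 1 library of naive CD4 T cells and 1 library of naive CD8 T cells. Both came from the spleen and lymph nodes of Foxp3-GFP mice on a C57/BL6 background, a reporter strain in which regulatory T cells carry a fluorescent tag. Both cell types were sorted by flow cytometry as CD62Lhi CD44lo CD25- Foxp3gfp-, a gate that keeps resting cells and removes regulatory T cells. The labels give no treatment, no age and no number of mice. RNA was depleted of ribosomal RNA and sequenced as whole transcriptome on the SOLiD platform, without selection of small RNA. The values therefore describe hairpin-containing precursor or host transcripts in total RNA, not mature microRNA. With 1 library per cell type there was no replicate check and no test between cell types; the differences below compare these libraries, and their 95% counting intervals (exact Clopper-Pearson, on recovered whole reads) cover counting error only.

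A microRNA gene is transcribed as a long primary transcript, often as part of a host gene, and the nuclear enzyme Drosha with its partner Dgcr8 cuts the hairpin out of it. Exportin-5 carries the hairpin to the cytoplasm, Dicer trims it, and an Argonaute protein holds the mature strand, which recognises its targets mainly through the seed at bases 2 to 8. In T cells, loci such as the Mir17 cluster, Mir155, Mir142, Mir150 and the let-7 family are known for roles in development, proliferation and activation.

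Of the 131 loci, 109 matched a hairpin in the RefSeq microRNA table (build GRCm38.p6) and together they encode 181 mature sequences with 151 distinct seeds. Only 18 of these seeds were shared, by 38 loci. Mature sequences are shown for the seed families and the single loci on which the values below turn, 5′ to 3′, with bases 2 to 8 in capitals. The let-7 family was the largest group of loci with 1 seed, GAGGUAG, and its members differ in the lower-case part:
let-7a: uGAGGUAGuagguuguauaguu
let-7c: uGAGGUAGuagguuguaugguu
let-7d: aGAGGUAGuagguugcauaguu
let-7f: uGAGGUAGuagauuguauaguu
let-7g: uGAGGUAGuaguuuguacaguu
let-7i: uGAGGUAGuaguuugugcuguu
miR-98: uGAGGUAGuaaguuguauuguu

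The AAAGUGC seed joins 5 loci that lie in 3 separate clusters of the genome, which allows loci with 1 seed to be set side by side across host transcripts:
miR-17-5p: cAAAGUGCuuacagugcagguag
miR-20a-5p: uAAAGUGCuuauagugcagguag
miR-20b-5p: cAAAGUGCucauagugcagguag
miR-93-5p: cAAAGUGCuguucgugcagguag
miR-106b-5p: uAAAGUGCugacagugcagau

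Among the loci with a RefSeq hairpin, the AGCAGCA seed belongs to miR-15b and to miR-16. Mir15a, also among the loci with reads, matched no RefSeq hairpin, so its seed was not grouped here. The same miR-16 sequence is made by Mir16-1 and Mir16-2 on different chromosomes. miR-103 is likewise made as 1 sequence by Mir103-1 and Mir103-2:
miR-15b-5p: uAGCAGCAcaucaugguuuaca
miR-16-5p: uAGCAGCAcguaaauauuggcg
miR-103-3p: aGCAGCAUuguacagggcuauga

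Further loci described below for their level or their difference encode the following, where miR-30c and miR-30e share the seed GUAAACA:
miR-142a-3p: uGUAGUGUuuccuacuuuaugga
miR-155-5p: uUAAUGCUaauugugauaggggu
miR-24-3p: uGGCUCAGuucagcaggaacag
miR-27b-3p: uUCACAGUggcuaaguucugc
miR-30c-5p: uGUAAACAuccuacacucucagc
miR-30e-5p: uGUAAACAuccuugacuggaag
miR-25-3p: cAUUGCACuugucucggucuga

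The whole hairpin is what the tables counted reads over, so 3 hairpins are given in full, with the mature arms in capitals. Mirlet7g lies at chr9:106178840-106178927 on the plus strand, in an intron of Wdr82. Mir142 lies at chr11:87756864-87756927 on the plus strand, in an intron of the noncoding gene Mir142hg. Mir24-1 lies at chr13:63301208-63301275 on the plus strand, and its whole length is covered on the minus strand by Mir3074-1, at chr13:63301199-63301283.
Mirlet7g: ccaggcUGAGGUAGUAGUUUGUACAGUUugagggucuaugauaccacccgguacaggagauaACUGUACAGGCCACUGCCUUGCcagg
Mir142: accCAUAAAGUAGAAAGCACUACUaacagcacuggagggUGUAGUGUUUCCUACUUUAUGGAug
Mir24-1: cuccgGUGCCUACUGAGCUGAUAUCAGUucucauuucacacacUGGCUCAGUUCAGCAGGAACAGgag

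Most of these loci carried few reads. The median locus had 14 reads in both libraries together, against a median of 1822 over the 10228 genes compared (those at 1 RPKM or more in at least 1 library), and the range ran from 2 to 4637. The 131 include 1 symbol that is no hairpin, Mir17hg, the long host transcript that spans the Mir17 cluster. Reads over the 131 loci made up 0.0213% of the 24741945 reads that scale the CD4 values and 0.0319% of the 23853921 that scale the CD8 values, or 0.0191% and 0.0285% over the 130 loci without Mir17hg. Because the hairpins are short, a single read was worth between 0.309 and 0.842 RPKM in the CD4 library and between 0.320 and 0.873 RPKM in the CD8 library. At the edge of the choice, Mir1934 (0 and 1.02 RPKM in CD4 and CD8, 0 and 2 reads), Mir3473c (1.01 and 0.524 RPKM) and Mir872 (0 and 1.05 RPKM) were just inside. Mir491 (0 and 0.986 RPKM, also 0 and 2 reads), Mir4660 (0.974 and 0 RPKM) and Mir181a-1 (0.940 and 0 RPKM) were just outside. In the table of each library, 100 loci stood at 1 RPKM or more, and 69 did so in both.

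The highest values lay where a microRNA annotation overlaps a small nucleolar RNA (snoRNA) or small Cajal body RNA (scaRNA), the guide RNAs that direct chemical modification of ribosomal and spliceosomal RNA. Of the 11 listed microRNA symbols with such an overlap on GRCm38, 6 (54.5%) were among the loci with reads, against 56 of 252 (22.2%) in introns of a host gene, 46 of 155 (29.7%) in exons of a host, 15 of 144 (10.4%) between genes and 5 of 49 (10.2%) lying only antisense to another gene. Mir1949, which overlaps a snoRNA, was the highest locus, with 828 RPKM in the CD4 library and 1958 in the CD8 library (1414 and 3223 reads). Its CD8 value was 2.36-fold higher, with an interval of 2.22 to 2.52. In bulk RNA, here as below, fewer cells that make a transcript and less of it per cell cannot be told apart. Mir3068, inside the demethylase gene Alkbh1 and overlapping a snoRNA, stood at 207 and 620 RPKM (399 and 1154 reads). That is 3.0-fold higher in CD8 (2.67 to 3.37), while Alkbh1 itself was at 29.2 and 23.6 RPKM. Mir677, inside the ATP synthase gene Atp5b and overlapping a snoRNA, stood at 35.7 and 102 RPKM (68 and 188 reads), with Atp5b at 504 and 479 RPKM. Mir3096, which the GENCODE annotation holds as a snoRNA, was 1.61-fold higher in CD8 (1.26 to 2.07), at 44.1 and 70.8 RPKM. The other overlapping loci were not higher in CD8: Mir1839, over a scaRNA, stood at 39.3 and 27.4 RPKM, and Mir5121 at 1.66 and 0 RPKM. The scaRNA genes of the tables, which are no microRNA loci, moved alongside: all 9 with compared values were higher in the CD8 library and 6 of them by 2-fold or more, where 4145 of all 10228 compared genes were higher in CD8 and 3.07% by 2-fold or more. An example is Scarna17 at 2118 and 4784 RPKM. Whether snoRNA fragments carried the reads over Mir1949, Mir3068 and Mir677 was not tested.

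**Figure D1:**
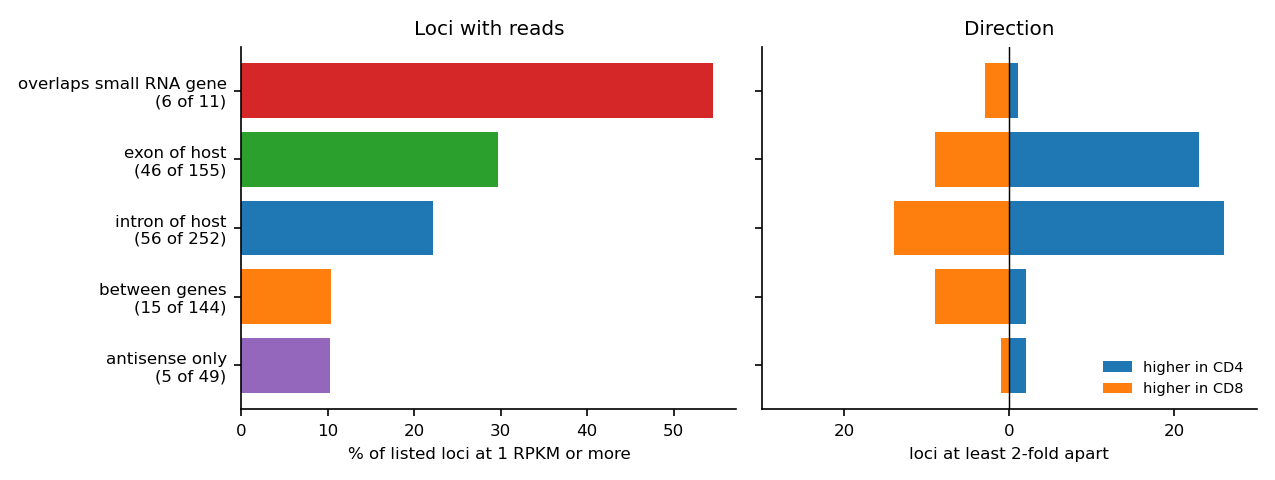
Left, share of listed microRNA symbols at 1 RPKM or more in at least 1 library (x axis, percent) by position on GRCm38 (y axis, with loci with reads of loci listed): loci over a small RNA gene reach 54.5% and intergenic loci 10.4%. Right, number of loci past the 2-fold size rule in each direction (x axis): 23 and 9 exonic loci and 2 and 9 intergenic loci were higher in CD4 and CD8.

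Mir1949, Mir3068 and Mir3064 together held 46.7% of the summed RPKM of all 131 loci in CD4 and 70.8% in CD8. Outside the snoRNA group, the highest loci were Mir3064, Mir1894, Mir150, Mir16-2, Mir142 and Mir24-1. Mir3064, in an exon of the RNA helicase gene Ddx5, stood at 143 and 111 RPKM in CD4 and CD8 (1.29-fold, 1.06 to 1.58), with Ddx5 at 477 and 416 RPKM. Mir1894, inside the phosphatase-targeting gene Ppp1r10, stood at 130 and 47.7 RPKM (257 and 91 reads), 2.72-fold higher in CD4 (2.14 to 3.50), with Ppp1r10 at 22.9 and 15.1 RPKM. The values in the CD4 and CD8 libraries correlated across the 131 loci with r = 0.634 and Spearman's rho = 0.474 on the log2(RPKM + 1) scale, where all compared genes gave 0.950 and 0.953. Loci are not independent points here, since they share clusters, hosts and both libraries.

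**Figure D2:**
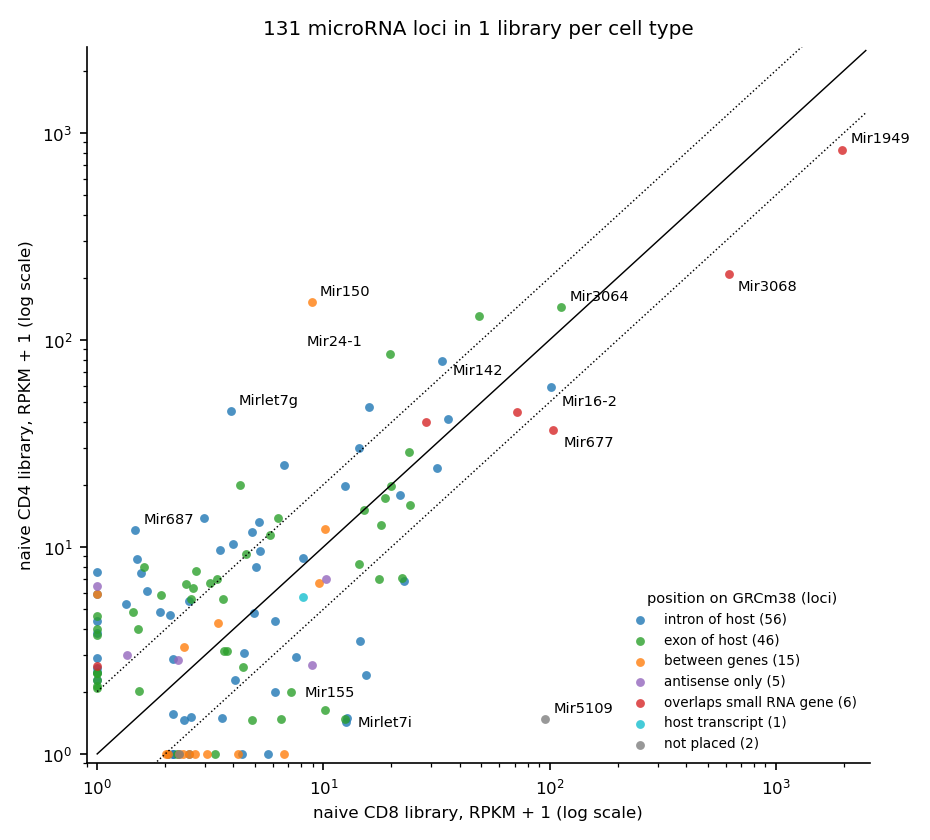
Level of each of the 131 microRNA loci in the naive CD8 library (x axis, RPKM + 1, log scale) and the naive CD4 library (y axis, RPKM + 1, log scale), coloured by position on GRCm38. The solid line marks equal levels and the dotted lines 2-fold; Mir1949, Mir3068 and Mir677 lie on the CD8 side, Mir150, Mirlet7g and Mir24-1 on the CD4 side.

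The counting rule for a difference was as follows, and it also underlies the right side of the plot by position. A locus was counted as different between the libraries when log2((CD4 + 1)/(CD8 + 1)) was 1 or more in size. By this rule 54 loci were higher in CD4, where 2.41% of all 10228 compared genes were, and 38 were higher in CD8, where 3.07% of all compared genes were. These background shares depend on the scaling: with both libraries scaled to sum to 1000000 they were 5.05% and 2.79%, so that the larger share was in CD4, while the counts of loci were 56 and 38. Asking in addition that the counting interval of the plain ratio lie on 1 side of equality left 32 loci in CD4 and 22 in CD8. These are 24.4% and 16.8% of the 131 loci. Over all compared genes the shares under the same rule were 2.2% in CD4 and 2.91% in CD8. With 5 RPKM added in place of 1, the counts without intervals were 15 and 13. The choice of loci enters these counts: 31 loci reached 1 RPKM in CD4 only and 30 of them were past the size rule, and 31 reached it in CD8 only, with 28 past the rule. Among the 69 loci at 1 RPKM or more in both libraries, 24 were higher in CD4, 10 were higher in CD8 and 35 were under the rule. The median log2 difference was 0.32 over the 131 loci and 0.08 over all compared genes. By position, 26 intronic loci were higher in CD4 and 14 in CD8, and 23 and 9 exonic loci. Between genes it was 2 and 9, and those 9 had 0 reads in CD4 and 2 to 10 reads in CD8. Among the 52 loci with 20 or more reads the median was 0.06, with 16 loci higher in CD4 and 12 higher in CD8.

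The share of loci past the size rule was higher under 20 reads than at 20 or more, and did not fall further at 100 or more. Of the 30 loci with 2 to 5 reads in both libraries together, 83.3% were past the size rule, as were 79.6% of the 49 loci with 6 to 19 reads and 51.5% of the 33 loci with 20 to 99 reads. Other compared genes with 20 to 99 reads were past it in 15.4% of 306 cases. Among loci with 100 or more reads, 11 of 19 (57.9%) were past the rule, 7 toward CD4 and 4 toward CD8, beside 4.27% of 9782 other genes. Gene length differs between these sets, since other genes with 20 to 99 reads are at much lower RPKM than a hairpin with the same number. The 1 RPKM added in the size rule draws the ratios of such genes nearer to 1. The class of 100 or more reads has no upper end, so depth is not matched there. Its 13 loci with a host had a median of 170 reads, while the median over all other compared genes was 1870.

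**Figure D3:**
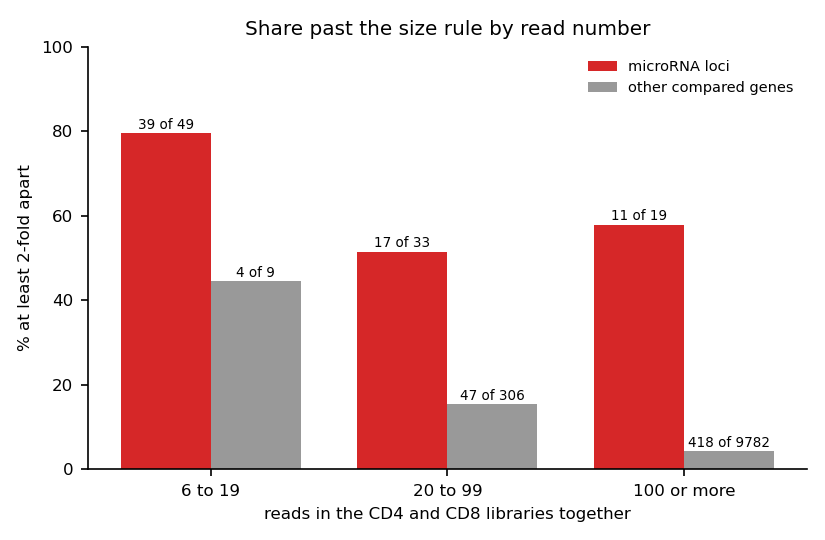
Percent of microRNA loci and of other compared genes past the 2-fold size rule (y axis), by reads in both libraries together (x axis; the 2 to 5 class, which holds no other gene, is left out). MicroRNA loci stand at 79.6%, 51.5% and 57.9%, and other genes at 44.4%, 15.4% and 4.27%.

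Among single loci between genes or in noncoding hosts, Mir150 and Mir142 stood toward CD4, and Mir155 and Mir182 toward CD8. Mir150, a microRNA of mature lymphocytes known to target Myb, held 152 RPKM in the CD4 library against 7.86 in the CD8 library (240 and 12 reads), 19.3-fold higher in CD4 (10.8 to 37.8). It lies between annotated genes, so there is no host value to set beside it. Mir142, a blood cell microRNA, was at 78.3 and 32.6 RPKM (122 and 49 reads), 2.40-fold higher in CD4 (1.71 to 3.42). Mir155, which is made from the noncoding gene Mir155hg (also known as Bic) and is induced on lymphocyte activation, was at 0.632 and 9.17 RPKM. That is 1 read in CD4 and 14 in CD8, a ratio of 14.5 with an interval of 2.21 to 614. Mir182, known for a role in clonal expansion of helper T cells, had 0 reads in CD4 and 10 reads (5.67 RPKM) in CD8. With a floor of 3 reads in place of the 0, the ratio was 3.46 toward CD8. That ratio leaves out the counting error of the 10 reads and is not a lower limit. Mir146, a brake on inflammatory signalling, had 0 and 2 reads.

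Further loci differed as much or more. Mir5109 had the largest difference of all: 0.470 RPKM (1 read) in the CD4 library against 94.6 (194 reads) in the CD8 library, a ratio of 201 with an interval of 35.7 to 7988. It could not be placed on GRCm38, so its host, overlap and annotated length are not known here. Its read numbers are the smallest whole numbers that give the listed values, and the interval depends on them. Mir687, in an intron of the tumour suppressor gene Rb1, was at 11.0 and 0.476 RPKM (24 and 1 reads; 23.1-fold, 3.77 to 952), and Rb1 itself was at 12.5 and 7.002 RPKM. Mir3061, inside the phosphatase gene Ppp2ca, was at 18.9 and 3.26 RPKM (5.78-fold, 2.57 to 15.3), with Ppp2ca at 105 and 122 RPKM. Toward CD8, Mir3066 was at 0.493 and 11.8 RPKM (1 and 23 reads), Mir709 at 1.39 and 14.5 RPKM (3 and 30 reads) and Mir1931 at 5.82 and 21.7 RPKM (17 and 61 reads). Their hosts Nol10 (4.55 and 5.39 RPKM), Rfx1 (12.7 and 12.7 RPKM) and Cdk17 (53.9 and 58.1 RPKM) were within the size rule.

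**Figure D4:**
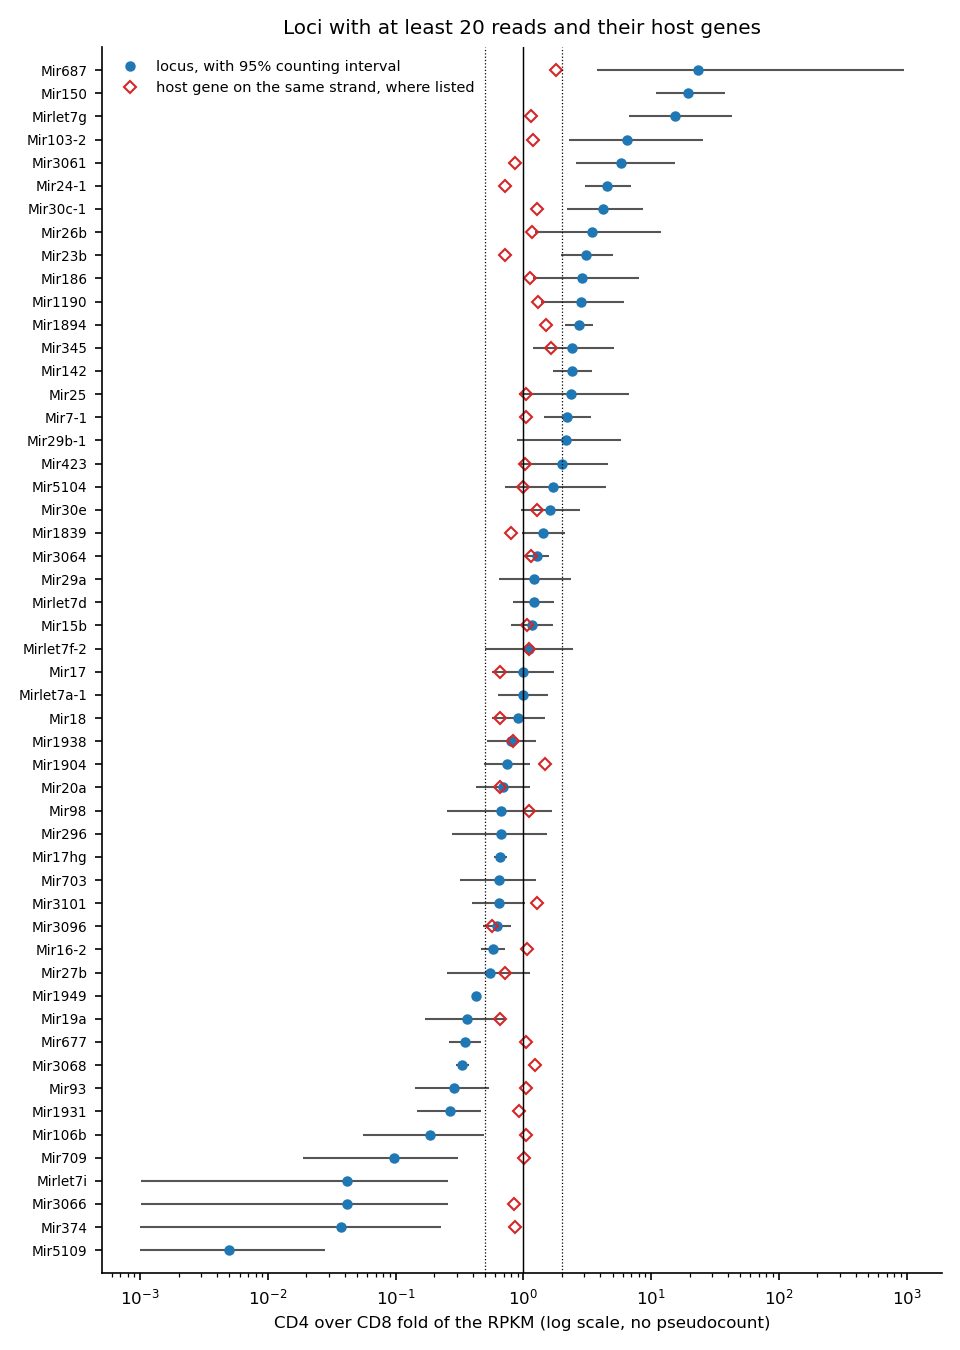
Ratio of CD4 to CD8 RPKM (x axis, log scale) with 95% counting intervals for the 52 microRNA loci with 20 or more reads (y axis, ordered by ratio) (points, with intervals cut at the low end of the axis); open diamonds mark the host gene's own ratio where one is listed. Mir150 at 19.3, Mirlet7g at 15.3 and Mir687 at 23.1 lie on the CD4 side, and the hosts listed for Mirlet7g and Mir687 lie nearer to 1.

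The let-7 loci, whose mature products restrain proliferation and growth genes, did not move as 1 group. Of the 12 listed let-7 and Mir98 symbols, 8 had reads at 1 RPKM or more. Of these, 2 were higher in CD4, 2 were higher in CD8 and 4 were under the rule, with a median log2 difference of 0.05. The shares of 25% and 25% stand beside 41.2% and 29.0% over all 131 loci. Over all compared genes they were 2.41% and 3.07%. Mirlet7g held 44.1 RPKM in the CD4 library against 2.89 in the CD8 library (95 and 6 reads), 15.3-fold higher in CD4 (6.76 to 42.6), although its host Wdr82, a subunit of a histone methyltransferase complex, was at 86.1 and 74.8 RPKM. Mirlet7i went the other way, at 0.481 and 11.5 RPKM (1 and 23 reads; 23.9-fold higher in CD8, 3.87 to 983). Comparing the sequences shown above, both encode the identical seed. Mirlet7c-2 had 9 and 1 reads and Mirlet7f-1 had 1 and 8 reads, both too few for a narrow interval. Mirlet7a-1 (18.7 and 18.9 RPKM), Mirlet7d (27.7 and 23.0 RPKM), Mirlet7f-2 (7.89 and 7.16 RPKM) and Mir98 (3.40 and 5.09 RPKM) had similar values, with intervals that span 1. Summed over the 8 loci of the GAGGUAG seed, the CD4 library held 107 RPKM (244 reads) and the CD8 library 72.8 RPKM (163 reads). The CD4 excess in this sum is smaller than the excess at Mirlet7g alone (95 and 6 reads), so it is not shared by the family. Mirlet7a-2, Mirlet7c-1 and Mirlet7e were listed at 0 in both, which at their hairpin lengths allows up to 1.28, 1.30 and 1.32 RPKM in CD4 when 3 reads are taken as the limit.

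Loci of 1 primary transcript can be read side by side. Within 10 kb on the same strand, 14 clusters held 2 or more of the loci, 39 loci in all. In 11 of the clusters at least 1 locus was past the size rule, and in 4 clusters loci were past it in opposite directions. Of all 131 loci, 54 and 38 were past the rule toward CD4 and CD8, beside 2.41% and 3.07% of all compared genes. Of 45 pairs of loci from the same cluster, 8 pairs, in 6 clusters, had counting intervals that did not overlap. Pairs from different clusters were not counted. Whether neighbours differ more or less than other loci is therefore not shown.

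The Mir17 cluster, a proliferation-promoting transcript, was close to equal as a whole. Its 5 loci with reads summed to 122 reads in CD4 and 146 in CD8, a CD4 to CD8 ratio of 0.81 with an interval of 0.63 to 1.03. The host transcript Mir17hg, counted over a longer annotation, had 546 and 796 reads (4.72 and 7.14 RPKM; 1.51-fold higher in CD8, 1.35 to 1.69). Within the cluster, Mir17 was at 14.12 and 14.14 RPKM, Mir18 at 16.2 and 17.7 RPKM, and Mir20a at 11.8 and 17.01 RPKM. Mir19a and Mir19b-1, which share the seed GUGCAAA, parted: Mir19a was at 5.99 and 16.6 RPKM (12 and 32 reads), and Mir19b-1 at 5.64 and 1.46 RPKM (12 and 3 reads). Mir92-1, the last hairpin of the cluster, was listed at 0 in both, which allows up to 1.53 RPKM in CD4 and 1.59 RPKM in CD8. The related cluster on the X chromosome had 0 reads in CD4 and 9 in CD8 over 3 loci, Mir18b, Mir20b and Mir92-2.

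The Mir106b cluster lies within Mcm7, which encodes a subunit of the replication helicase, and 2 of its loci stood toward CD8 while the host was under the size rule. Mcm7 was at 49.5 and 47.6 RPKM. Mir106b was at 2.49 and 13.5 RPKM (5 and 26 reads; 5.39-fold higher in CD8, 2.04 to 17.99). Mir93 was at 6.04 and 21.2 RPKM (13 and 44 reads; 3.51-fold higher in CD8, 1.86 to 7.10). Mir25 was at 8.28 and 3.54 RPKM (17 and 7 reads). It passed the size rule narrowly toward CD4 (log2 difference 1.03) and not when each library was centred on its median gene. Its interval, as a CD4 to CD8 ratio, was 0.92 to 6.68 and spans 1. On that same scale it overlaps neither the interval of Mir106b (0.056 to 0.49) nor that of Mir93 (0.14 to 0.54). Across the AAAGUGC seed shown above, none of the 5 loci was higher in CD4 and 3 were higher in CD8 by the size rule. These were Mir106b and Mir93, which are neighbours in 1 cluster, and Mir20b, with 0 and 2 reads. Over all 131 loci the shares in CD4 and CD8 were 41.2% and 29.0%, and over all compared genes 2.41% and 3.07%.

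The Mir23b cluster stood toward CD4. Its 3 loci summed to 237 and 79 reads, 2.89-fold higher in CD4 (2.23 to 3.78), while the protein-coding gene that contains it, 2010111I01Rik, was at 12.3 and 17.2 RPKM. Mir24-1 was at 84.5 and 18.8 RPKM (140 and 30 reads; 4.50-fold, 3.02 to 6.92) and Mir23b at 46.5 and 14.9 RPKM (84 and 26 reads; 3.11-fold, 1.99 to 5.04). Mir27b, between them, was at 7.30 and 13.4 RPKM (13 and 23 reads), and its interval overlaps neither neighbour's. Mir3074-1, on the opposite strand over the Mir24-1 hairpin shown above, was at 7.70 and 0.499 RPKM (16 and 1 reads). Whether counting used the strand is not given in the sources used here, so reads of this pair may be shared between both names. The related Mir23a cluster had 7 and 8 reads over Mir23a and Mir27a.

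The Mir15b and Mir16-2 pair, in the condensin gene Smc4, held 198 and 277 reads and was 1.45-fold higher in CD8 (1.20 to 1.75), with Smc4 at 170 and 159 RPKM. The difference lay at Mir16-2, at 58.0 and 100.3 RPKM (1.73-fold higher in CD8, 1.39 to 2.16), while Mir15b, at 40.4 and 34.6 RPKM, had an interval that spans 1. A related pair, in the noncoding gene Dleu2, was low. Mir15a was at 1.95 and 6.57 RPKM (4 and 13 reads) and Mir16-1 at 4.83 and 0.911 RPKM (11 and 2 reads), with intervals that do not overlap. How reads that map to several places were counted is not stated, so reads of the identical miR-16 stretch may be placed at either Mir16 locus, and the values of Mir16-1 and Mir16-2 are uncertain to that extent.

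Other families were lower in reads. Mir30c-1 and Mir30e, in the transcription factor gene Nfyc, were at 23.9 and 5.72 RPKM and at 18.7 and 11.5 RPKM. Together they were 2.45-fold higher in CD4 (1.66 to 3.69), with Nfyc at 30.5 and 23.9 RPKM. Mir30c-1 alone was 4.18-fold higher in CD4 (2.20 to 8.60). Mir30e alone was 1.62-fold higher, with an interval of 0.96 to 2.77 that spans 1. Mir29a was at 11.1 and 9.16 RPKM and Mir29b-1 at 10.4 and 4.79 RPKM, both with intervals that span 1. The miR-103 locus Mir103-2, in an intron of the kinase gene Pank2, was at 12.8 and 1.97 RPKM (27 and 4 reads; 6.51-fold higher in CD4, 2.27 to 25.6). Mir103-1, with the same mature sequence, had 6 and 0 reads, and the same uncertainty over shared reads holds for this pair. Mir26b, in Ctdsp1, was at 8.66 and 2.50 RPKM (3.47-fold, 1.24 to 12.0). Mir374 and Mir421, of 1 transcript, were opposite: 1 and 26 reads for Mir374, and 12 and 1 reads for Mir421. Mir374c, on the opposite strand within the Mir374 hairpin, had 2 and 9 reads. Since the strand setting is not given, reads may be shared between Mir374 and Mir374c. The Sfmbt2 cluster, a repeated array of 42 listed loci, had 29 and 9 reads over its 6 loci at 1 RPKM or more, and 31 of its loci were at 0 in both libraries.

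**Figure D5:**
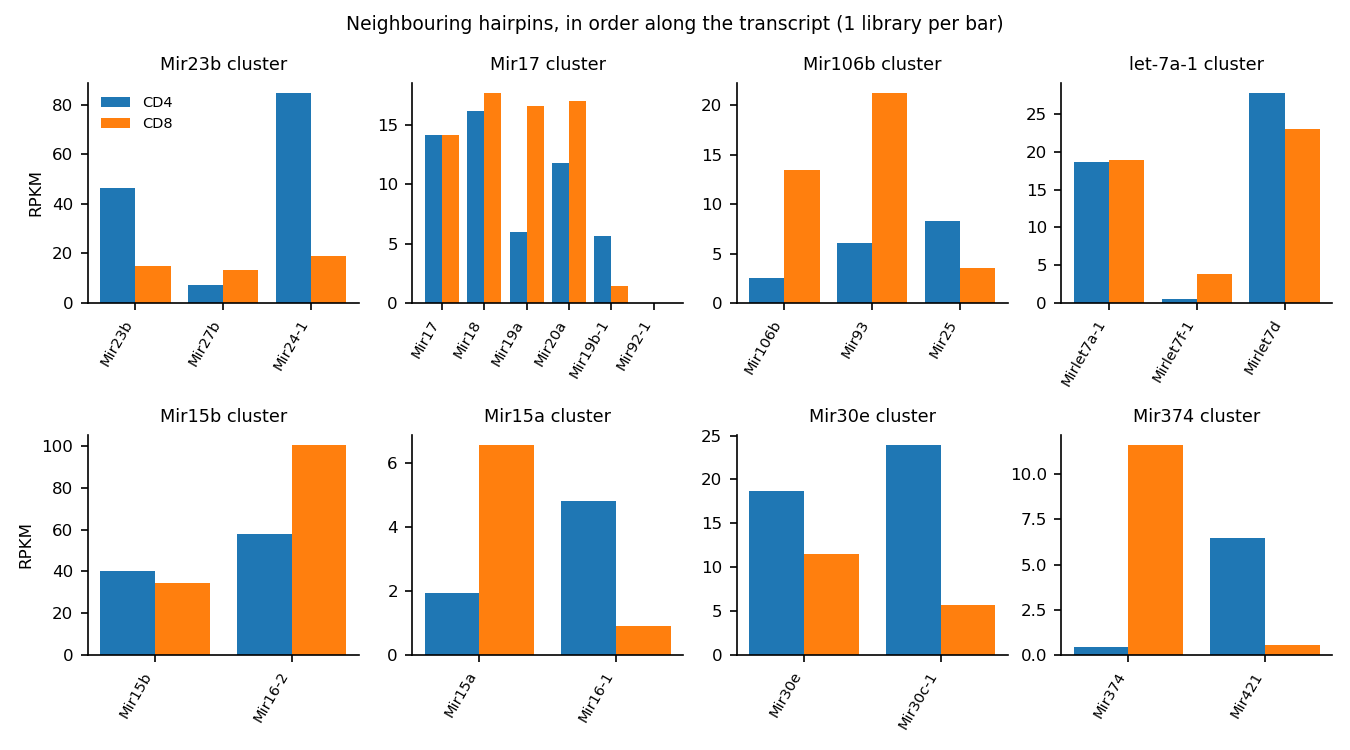
RPKM (y axis, linear from 0, own scale in each panel) in the naive CD4 and naive CD8 libraries for neighbouring hairpins of 8 clusters (x axis, in transcript order), 1 library per bar. Mir27b and Mir25 differ in direction from their neighbours, as do Mir19b-1 from Mir19a, Mir16-1 from Mir15a and Mir421 from Mir374.

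Host genes can be set beside the loci inside them. For 93 loci the tables hold a host gene on the same strand, 75 hosts in all. The hosts' log2 differences ran from -1.001 to 1.37. The median size of the log2 difference was 1.32 over these loci and 0.24 over their hosts, with a host counted once per locus. The choice of loci and their depth enter this gap: 40 of the 93 reached 1 RPKM in only 1 library, and the median locus had 16 reads where the median host had 2560. Over the 40 loci with 20 or more reads the medians were 1.21 for the loci and 0.23 for the hosts, still at very unequal depth. Of the 93 loci, 64 were past the size rule, and the host was under it for 60 of them. The 2 loci whose host was past it as well were Mir700, with 7 and 0 reads in Rcan3 (31.2 and 11.5 RPKM), and Mir1982, with 12 and 3 reads in Oaz1 (3.55 and 8.11 RPKM, the opposite direction). All 23 loci with 20 or more reads past the rule had a host under it. Few hosts were past the rule at all, 2 of the 75 distinct hosts. Of all 10228 compared genes, 9667 were under it, so these host counts are near the background share. Of the 40 loci with a host and 20 or more reads, the locus interval did not hold the host's ratio for 24 and held it for 16. In level, 17 of the 93 loci were above their host and 76 below, with a median log2 ratio of locus to host of -1.81. Mir3096 stood above its noncoding host AI506816 by 89.0-fold in CD4 and 80.9-fold in CD8, and Mir3068 above Alkbh1 by 7.09-fold and 26.2-fold.

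A list of 86 symbols of microRNA loci known in T cells had 79 symbols in the tables and 39 among the loci with reads: 16 higher in CD4, 12 higher in CD8 and 11 under the rule, with a median log2 difference of 0.26. These shares, 41.0% and 30.8%, are near the 41.2% and 29.0% over all 131 loci, and 2.41% and 3.07% of all compared genes were called. With the interval also required, 11 and 7 remained. The list's other symbols were 33 at 0 in both libraries and 7 with reads under 1 RPKM. Those at 0 included Mir21, an abundant microRNA of activated T cells, Mir223, a myeloid microRNA, Mir126, an endothelial one, and Mir181a-2 and Mir125a. Mir181a-1, which tunes T cell receptor sensitivity in the thymus, had 2 reads in CD4. Mir181b-1, beside it in the genome, had 9 and 3 reads (4.60 and 1.59 RPKM), and its interval spans 1. A hairpin at 0 does not show that the mature microRNA is absent, since mature microRNA was not the fraction sequenced.

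The genes that make and use microRNA were less than 2-fold apart by the size rule. None of the 30 genes of a list of processing and effector genes that could be compared was past it in either direction, which is near the background of 2.41% and 3.07% of all compared genes. Their median log2 difference was 0.12, beside 0.08 over all compared genes, with 20 above 0 and 10 below. Drosha was at 9.86 and 8.10 RPKM (1.22-fold, 1.11 to 1.33) and its partner Dgcr8 at 29.2 and 26.7 RPKM. Xpo5, the exporter, was at 30.1 and 28.1 RPKM, and Dicer1 at 17.2 and 13.3 RPKM (1.30-fold, 1.24 to 1.36). The Argonaute genes, listed under the older symbols Eif2c1, Eif2c2 and Eif2c3, were at 9.02 and 5.96 RPKM, 12.2 and 12.1 RPKM, and 4.61 and 3.87 RPKM. Prkra, a Dicer partner, had the largest ratio of the list at 3.14 and 1.36 RPKM (2.31-fold, 1.65 to 3.29), but stayed under the size rule, which adds 1 RPKM to each value; it passed with 0.1 RPKM added. Zcchc11, a uridylyltransferase that acts on let-7 precursors together with Lin28, was at 16.9 and 23.6 RPKM, while Lin28a was at 0 in both libraries and Lin28b had 1 read in CD4. The nuclease Xrn2 was at 97.3 and 133 RPKM.

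The sorted identities showed in their marker genes. The CD4 lineage markers Cd4, Zbtb7b and Cd40lg summed to 389 RPKM in the CD4 library and 11.1 in the CD8 library, Cd8a and Cd8b1 to 23.9 and 1306, and 5 T cell markers to 1710 and 1754. The sum of 6 B cell markers was 3.45 and 30.3 RPKM, where Cd79b alone gave 2.14 and 28.8 and the other 5 were under 1 RPKM in both. Markers of NK cells summed to 0.697 and 6.01 RPKM, of neutrophils to 2.52 and 4.56, of myeloid cells to 8.399 and 4.57, and of stroma and endothelium to 105 and 52.5, of which Pecam1, also known from naive T cells, gave 105 and 52.4. Their part in the differences at the microRNA loci was not tested.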

How the data were processed

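The deposited values are RPKM per gene for 1 naive CD4 and 1 naive CD8 library, named as such per the file headers and labels; the submitters' processing notes name TopHat, HTSeq and mm9. Not given in the sources used here were tool versions, the strand setting, the treatment of multi-mapping reads and the annotation. The loci, lists and comparisons were chosen with earlier results of these data known.

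Whole reads were recovered from RPKM: with a hairpin's end minus start as length, 92 of 112 hairpins above 0 in CD4 and 93 of 110 in CD8 gave whole numbers for 1 library total each. The annotated length gave whole reads for 126 of the 131 loci. For Mir3096, Mir1190, Mir17hg and most longer genes the nearest fitting length was used, and for Mir5109 and Mir193 the smallest, so those read numbers are less sure. Recovered reads of the compared genes summed to 25268357 in CD4 and 24463173 in CD8, above the library totals of 24741945 and 23853921. Read medians and read classes of genes and hosts are therefore approximate. Ratios are of RPKM, with exact Clopper-Pearson 95% counting intervals; the floor is 3 counts per library. The size rule uses a pseudocount of 1 RPKM. No gene test was run, since each cell type has 1 library, and PCR copies are not told apart, so intervals cover counting error only. Position and hosts come from RefSeq and GENCODE M21 on GRCm38, matched by symbol; 128 loci were placed, and no mm9 coordinates were used. Loci are clustered at 10 kb.

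Loci named are the 15 highest, up to 10 per direction with the largest difference among those with 20 or more reads, the T cell and let-7 lists, the machinery genes, hosts, 3 loci on each side of the threshold, and cluster or overlap neighbours of these; Mir5121, Mir103-1, Mir700 and Mir1982, and the Scarna genes, were named after their values were seen. Other pseudocounts (0.1 and 5 RPKM), filters and scalings were tried. Scripts ran in Python 3.11.15 with numpy 2.4.6, pandas 2.3.3, scipy 1.17.1 and matplotlib 3.10.9 and were tested on simulated data.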

Additional observations from a re-analysis of the deposited data

How the results depend on the processing

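Counts of loci past the size rule moved with the settings. Over all compared genes, 247 were higher in CD4 and 314 in CD8 as deposited, but 517 and 285 with both libraries scaled to the same sum and 298 and 268 with housekeeping genes, so the larger side changed; it was 224 and 359 when centred on the median gene. Higher in CD4 (54 loci) became 15 with a pseudocount of 5 RPKM, 28 with a filter of 5 RPKM, 16 with 20 or more reads, 7 with 100 or more reads (chosen after seeing the data) and 32 with the interval required. Higher in CD8 (38 loci) became 13, 19, 12, 4 and 22 under the same settings. The median log2 difference of 0.32 became 0.16 with a pseudocount of 5 RPKM, 0.55 with both libraries scaled to sum to 1000000 and 0.061 with 20 or more reads. The number of loci, 131, became 71 at 5 RPKM and 69 when both libraries had to reach 1 RPKM. Machinery genes higher in CD4 went from 0 to 1 (Prkra) with a pseudocount of 0.1 RPKM and with the rescaled sum, both tried for this list after seeing the data. The machinery median of 0.12 became 0.34 with the rescaled sum and 0.23 with 14 housekeeping genes. Rescaling to a sum shifts every plain log2 ratio, with no pseudocount, by 0.21, and the housekeeping genes shift it by 0.11. With 1 RPKM added the shift differs by locus. Under the sum, the log2 difference of Mir687 went from 3.03 to 3.72 and that of Mir3066 from -3.10 to -3.48. Mirlet7a-1, Mir17 and Mir18, near equality, change sign under the sum. Of 44 loci of the naming rule past the size rule, 20 fell under it with a pseudocount of 5 RPKM and 1, Mir25, with each library centred on its median gene. Loci with few reads are limited by depth: the interval spans 1 for 73 of 131. No paired analysis was possible because each cell type has 1 library.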
